A study of Mus musculus with 28 samples.

Results

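Described here are the 80 genes most clearly higher at 2 µM vorinostat than in control and at 10 µM in CD8 T cells. The 2 µM dose was the middle of 3, and the lowest, 0.5 µM, had no part in the choice. Each of 18194 mouse genes was represented by its brightest probe set, and 6920 of them had a log2 signal over 6 in both CD8 arrays at 2 µM vorinostat. Within each replicate number, the smaller of 2 differences was taken, 2 µM minus control and 2 µM minus 10 µM. The smaller of the 2 replicate results was the score of the gene. A score over 0 was found for 743 genes, and the 80 with the highest scores are the members. Scores ran from 3.82 for Ccl9 to 0.53 for Dapl1. The members just inside the limit were Map4k4 (0.56), Tnfaip3 (0.55) and Dapl1 (0.53), and the genes just outside it were P2ry10b (0.53), Nfkbie (0.53) and Irak2 (0.52). The choice of members thus used the CD8 control, 2 µM and 10 µM arrays. Values from those arrays, and from any CD8 group set against the CD8 control, are given as a description with no test.

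Splenic CD4 and CD8 T cells of mice had been isolated by negative selection, activated over 2 days by antibodies against CD3 plus CD28, and cultured 1 more day as control or under drug. The drugs were vorinostat and romidepsin. Vorinostat, a hydroxamate inhibitor of histone deacetylases, was given at 0.5, 2 or 10 µM. Romidepsin, a cyclic depsipeptide that also inhibits histone deacetylases, was given at 2, 10 or 30 nM. Every cell type had 7 groups of 2 arrays, 28 arrays in all, numbered replicate 1 and 2, and control cells had the same stimulation with no drug named. Strain, age and vehicle are not given in the sources used here, nor is it said whether the replicates came from separate animals, so that p-values measure the spread between these samples.

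T cells that receive a signal through the antigen receptor and CD28 switch on NF-kB, NFAT and AP-1 transcription factors. These factors drive genes of cytokines, chemokines, ligands of the tumour necrosis factor (TNF) superfamily and costimulatory receptors, together with feedback inhibitors that end the signal. Interleukin 2 then acts through Il2ra and STAT5, for which Cish and Pim1 are well known targets. Histone deacetylase inhibitors raise histone acetylation and change the RNA of many genes in both directions, and at high doses they kill activated lymphocytes.

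Cell type labels were borne out by Cd8a, which lay between 9.34 and 11.99 in CD8 arrays and at 6.07 or lower in CD4 arrays. Cd4 lay at 2.34 or lower in all CD8 arrays and between 2.39 and 8.55 in CD4 arrays, of which 3, both at 30 nM romidepsin and replicate 1 at 10 µM vorinostat, were at or under the detection level of 4.27. Replicate 1 arrays carried the Y-linked Eif2s3y (11.36 to 12.02) and replicate 2 arrays carried Xist (11.69 to 12.72), so replicate number and the sex read from these genes cannot be told apart, and values within each number are given beside the pooled ones. The mean log2 level of 6 pan T cell markers was 11.29 and 11.97 in the CD8 control arrays, 11.13 and 11.89 at 2 µM vorinostat, and 9.01 and 10.41 at 10 µM. In CD4 cells the same mean was 11.59 and 11.98 in control arrays, 11.27 and 11.69 at 2 µM, and 9.58 and 10.42 at 10 µM. The 3′ minus 5′ actin signal, a sign of RNA integrity, moved from 0.86 and 0.79 in CD8 control arrays to 1.16 and 0.96 at 2 µM and to 1.43 and 1.16 at 10 µM. All 5 NK cell markers and all 6 erythroid and platelet markers were at or under detection in every CD8 array. Of 8 B cell markers, 4 were over detection in a CD8 control array and 3 at 2 µM and 10 µM, with summed linear signals of 659 and 1769 in control, 70.9 and 511 at 2 µM and 51.4 and 151 at 10 µM. Of 13 myeloid and dendritic markers, 5 were over detection in a CD8 control array, 5 at 2 µM and 3 at 10 µM, namely Fcgr3, Mpeg1, Cybb, Ly86 and Cst3 in control. The summed linear signal of the 13, which follows the brightest of them, was 2116 and 2545 in control, 6024 and 5015 at 2 µM and 4778 and 5791 at 10 µM. Their mean log2 level moved less, with 3.09 and 4.03 in control, 3.29 and 4.08 at 2 µM and 3.16 and 3.81 at 10 µM. The part of these markers and of RNA integrity in the levels of the members was not tested, and in such bulk samples fewer cells of a type and less RNA per cell cannot be told apart.

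Promoters of the members are shown because the members include many textbook targets of NF-kB and AP-1. RefSeq promoter windows, from 250 bases before to 50 bases after a transcription start (build GRCm38.p6), were matched for 56 members, which had 72 windows. Both strands were searched for an NF-kB site by its usual consensus, for the AP-1 site TGANTCA and for further motifs. An NF-kB match was found in 12.5% of the members' windows, in 5.1% of the 10352 windows of all tested genes and in 4.5% of all 32851 windows. An AP-1 match was found in 18.1% of the members' windows, against 4.7% for the tested genes and 7.8% for all windows. For the NFAT core GGAAAA, which can overlap an NF-kB match, the shares were 29.2%, 20.4% and 23.4% in the same order. These shares describe letters in the windows and were not tested. The 9 members with an NF-kB match were Bcl2l1, Ccl9, Ier3, Il2ra, Il4ra, Pdcd1lg2, Ptms, Rel and Tnfaip3. The promoters that follow are given as the 250 bases before the start on the strand of the gene, with NF-kB and AP-1 matches in capitals. Ccl9 (chr11:83578637-83578886, minus strand) is the member of highest score and has AP-1 and NF-kB matches starting at -53 and -35. Tnfaip3 (chr10:19015411-19015660, minus strand), the feedback inhibitor of NF-kB, has an AP-1 match at -136 and NF-kB matches at -125 and -12. Rel (chr11:23770970-23771219, minus strand), an NF-kB subunit, has overlapping NF-kB matches at -92 and -91. Il2ra (chr2:11642542-11642791, plus strand), the alpha chain of the interleukin 2 receptor, has overlapping NF-kB matches at -201 and -200.
Ccl9: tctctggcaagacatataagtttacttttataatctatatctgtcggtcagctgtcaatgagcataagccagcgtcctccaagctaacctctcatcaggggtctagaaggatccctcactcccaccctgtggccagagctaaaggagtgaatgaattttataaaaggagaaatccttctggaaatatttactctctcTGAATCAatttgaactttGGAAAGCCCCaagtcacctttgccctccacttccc
Tnfaip3: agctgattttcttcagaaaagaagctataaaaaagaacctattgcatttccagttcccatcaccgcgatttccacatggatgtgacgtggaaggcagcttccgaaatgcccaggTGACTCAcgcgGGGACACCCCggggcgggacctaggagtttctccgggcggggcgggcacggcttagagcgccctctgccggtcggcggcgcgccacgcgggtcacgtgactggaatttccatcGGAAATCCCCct
Rel: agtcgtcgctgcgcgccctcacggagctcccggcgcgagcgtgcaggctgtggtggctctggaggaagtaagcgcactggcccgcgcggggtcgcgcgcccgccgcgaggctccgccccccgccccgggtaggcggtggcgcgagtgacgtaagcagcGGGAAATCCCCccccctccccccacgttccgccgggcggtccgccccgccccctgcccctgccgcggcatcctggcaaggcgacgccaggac
Il2ra: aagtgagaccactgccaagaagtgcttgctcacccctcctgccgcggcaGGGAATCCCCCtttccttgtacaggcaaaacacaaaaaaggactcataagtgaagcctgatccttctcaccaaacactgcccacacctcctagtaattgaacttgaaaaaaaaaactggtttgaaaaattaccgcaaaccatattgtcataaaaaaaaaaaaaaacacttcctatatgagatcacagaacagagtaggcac

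In CD8 cells, the highest scores belonged to chemokines, TNF superfamily ligands and receptors of activated T cells. The values that follow are log2 signals, replicate 1 and then replicate 2. Ccl9, a CC chemokine, read 5.73 and 3.38 in control, 10.78 and 6.78 at 0.5 µM, 9.56 and 7.20 at 2 µM, and 3.89 and 2.65 at 10 µM. Its level at 10 µM was thus under detection in both arrays, while the 2 µM arrays lay well above the control arrays. Ccl3, an inflammatory CC chemokine, read 11.71 and 11.77 in control, 13.70 and 13.18 at 0.5 µM, 13.66 and 13.84 at 2 µM, and 8.72 and 11.01 at 10 µM. Ccl4, the CC chemokine encoded next to it, read 10.30 and 10.63 in control, 12.42 and 11.92 at 0.5 µM, 12.70 and 13.15 at 2 µM, and 10.06 and 11.47 at 10 µM. Both 2 µM arrays of each gene lay above all control and 10 µM arrays, as the choice of members required within each number. Xcl1, which attracts cross-presenting dendritic cells, read 14 and 13.20 in control, 14.57 and 14.17 at 2 µM and 10.03 and 11.93 at 10 µM, the largest drop from control to 10 µM of the 80 members (-2.62).

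Among the 6 TNF superfamily ligands, Lta (lymphotoxin alpha) read 9.0 and 7.91 in control, 11.76 and 9.20 at 0.5 µM, 12.85 and 10.61 at 2 µM, and 7.95 and 7.96 at 10 µM. Cd70, the ligand of CD27, read 3.5 and 4.23 in control, 7.65 and 5.5 at 0.5 µM, 6.89 and 6.10 at 2 µM, and 2.27 and 2.34 at 10 µM. Cd70 was over detection at 0.5 and 2 µM and under it in the control and 10 µM arrays. Tnfsf14 (LIGHT) read 6.11 and 6.50 in control, 7.76 and 8.39 at 2 µM, and 4.95 and 6.64 at 10 µM. Tnfsf9, the ligand of the costimulatory receptor CD137, read 6.33 and 5.54 in control, 7.47 and 7.18 at 2 µM, and 3.36 and 4.75 at 10 µM. Fasl, a death ligand used by cytotoxic cells, read 8.69 and 9.44 in control, 9.84 and 10.37 at 2 µM, and 5.28 and 8.31 at 10 µM. Each 2 µM array of Lta and Fasl lay above the control and 10 µM arrays of its own number, while Lta of replicate 2 was as low in control as at 10 µM. Over the 6 ligands the median of 2 µM minus control was 1.58.

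Receptor and signalling groups had smaller medians of 2 µM minus control than the 4 chemokines (2.23) and the TNF superfamily ligands. The medians were 1.15 for cytokine receptors, 1.12 for other surface receptors and 1.05 for transcription and signalling feedback. Single genes of these groups were higher than many ligands, up to 2.54 for Tesc and 2.31 for Mpzl2. Il2ra read 9.45 and 8.81 in control, 10.57 and 9.66 at 0.5 µM, 11.27 and 10.72 at 2 µM, and 8.85 and 9.02 at 10 µM. Crtam, a surface receptor of activated cytotoxic cells, read 11.34 and 11.57 in control, 12.95 and 13.27 at 2 µM, and 10.05 and 11.73 at 10 µM. Sema7a, a membrane-anchored semaphorin, read 6.60 and 7.44 in control, 8.14 and 9.44 at 2 µM, and 5.5 and 7.64 at 10 µM. In both Crtam and Sema7a, replicate 2 at 10 µM stayed near its control, while replicate 1 lay below it. Pdgfb, a growth factor chain, read 4.69 and 5.25 in control, 6.21 and 6.72 at 2 µM, and 2.91 and 4.20 at 10 µM. Upp1, which splits uridine to release ribose phosphate, read 6.18 and 4.32 in control, 7.69 and 6.92 at 2 µM, and 5.83 and 5.77 at 10 µM. The control and 10 µM arrays of Upp1 overlapped, and the 2 µM arrays lay above both.

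**Figure D1:**
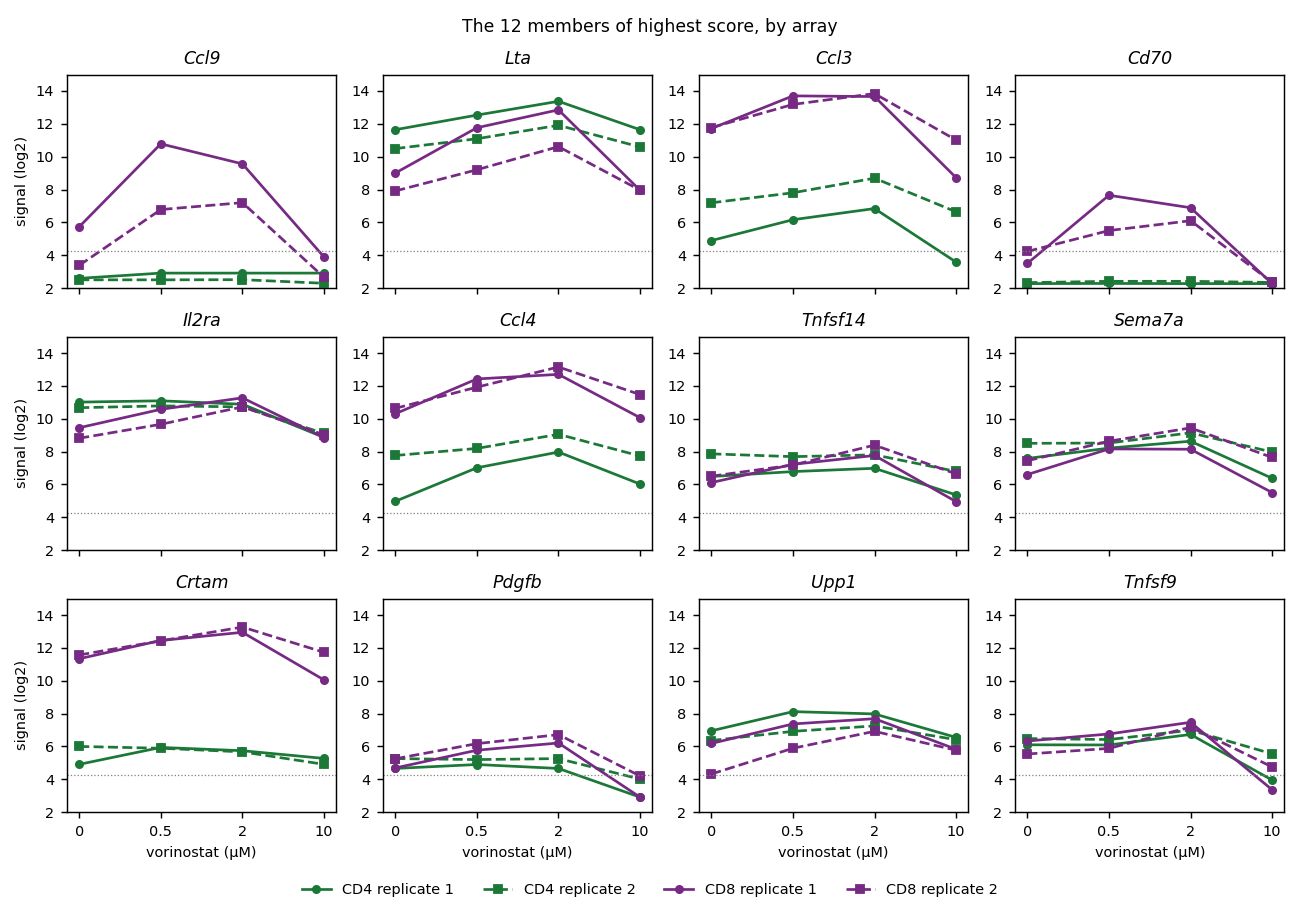
Log2 signal of the 12 members of highest score in each vorinostat array (0 is the control), CD8 cells in purple and CD4 cells in green, replicate 1 with solid lines and circles and replicate 2 with dashed lines and squares; the dotted line is the detection level of 4.27. Ccl9 and Cd70 stay under detection in the CD4 arrays, while Lta is highest at 2 µM in both cell types.

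Over all 80 members in CD8 cells, the median of 2 µM minus control was 1.06 log2 units (1.23 in replicate 1 and 0.95 in replicate 2), and the median of 2 µM minus 10 µM was 1.26. All tested genes had medians of -0.03 for both. Being higher at 2 µM than in control in both numbers was required of the members, and held for 37% of tested genes. At 10 µM the members stood on both sides of control: the median was -0.23 (-0.53 in replicate 1 and 0.01 in replicate 2), with 18 members higher in both numbers, 36 lower in both and 26 mixed. Among all tested genes, 43.3% were higher and 42.7% lower in both numbers. Ifng was at -1.29 and Csf2 at -1.62 at 10 µM minus control, while Pdgfb was under detection in both 10 µM arrays. Of the TNF superfamily ligands, Fasl, Tnfsf9 and Tnfsf4 were lower in both numbers, Lta and Tnfsf14 were lower in replicate 1 alone, and Cd70 was under detection in both groups. The 10 members of the cytoskeleton, matrix and trafficking group had a median of 0.18, and Marcks, which links actin to the membrane, was 2.82 higher at 10 µM than in control. Tesc, a calcineurin B homologous calcium-binding protein, was 1.56 higher. Marcks read 6.15 and 5.56 in control, 9.97 and 9.28 at 2 µM and 8.71 and 8.65 at 10 µM, so its level at 10 µM lay between control and 2 µM.

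At 0.5 µM vorinostat, the members already stood above control: the median was 0.70, and 79 members were higher in both CD8 arrays, against 25.9% of tested genes. This value shares its control arrays with the choice of members. The same limit holds for CD8 romidepsin against control. The median of the members was 0.23 at 2 nM, with 62 higher in both numbers and 4 lower (30.7% and 27.5% of tested genes). It was 0.76 at 10 nM, with 79 higher in both (33.7%), and 0.65 at 30 nM, with 57 higher in both (42.8%) and none lower (39.3% of tested genes). The top dose of vorinostat left the members' median at -0.23 and the top dose of romidepsin at 0.65, at doses that are not matched. The choice of members required 10 µM vorinostat to lie below 2 µM and put no such limit on romidepsin. These medians therefore do not compare the drugs. Of the 7 CD8 groups, 2 µM vorinostat held the highest mean for 69 members, 10 nM romidepsin for 6, 0.5 µM vorinostat for 3 and 30 nM romidepsin for 2. The lowest mean was at 10 µM vorinostat for 53 members and in control for 27. The choice of members required 2 µM to lie above control and 10 µM, so these counts in large part restate it.

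**Figure D2:**
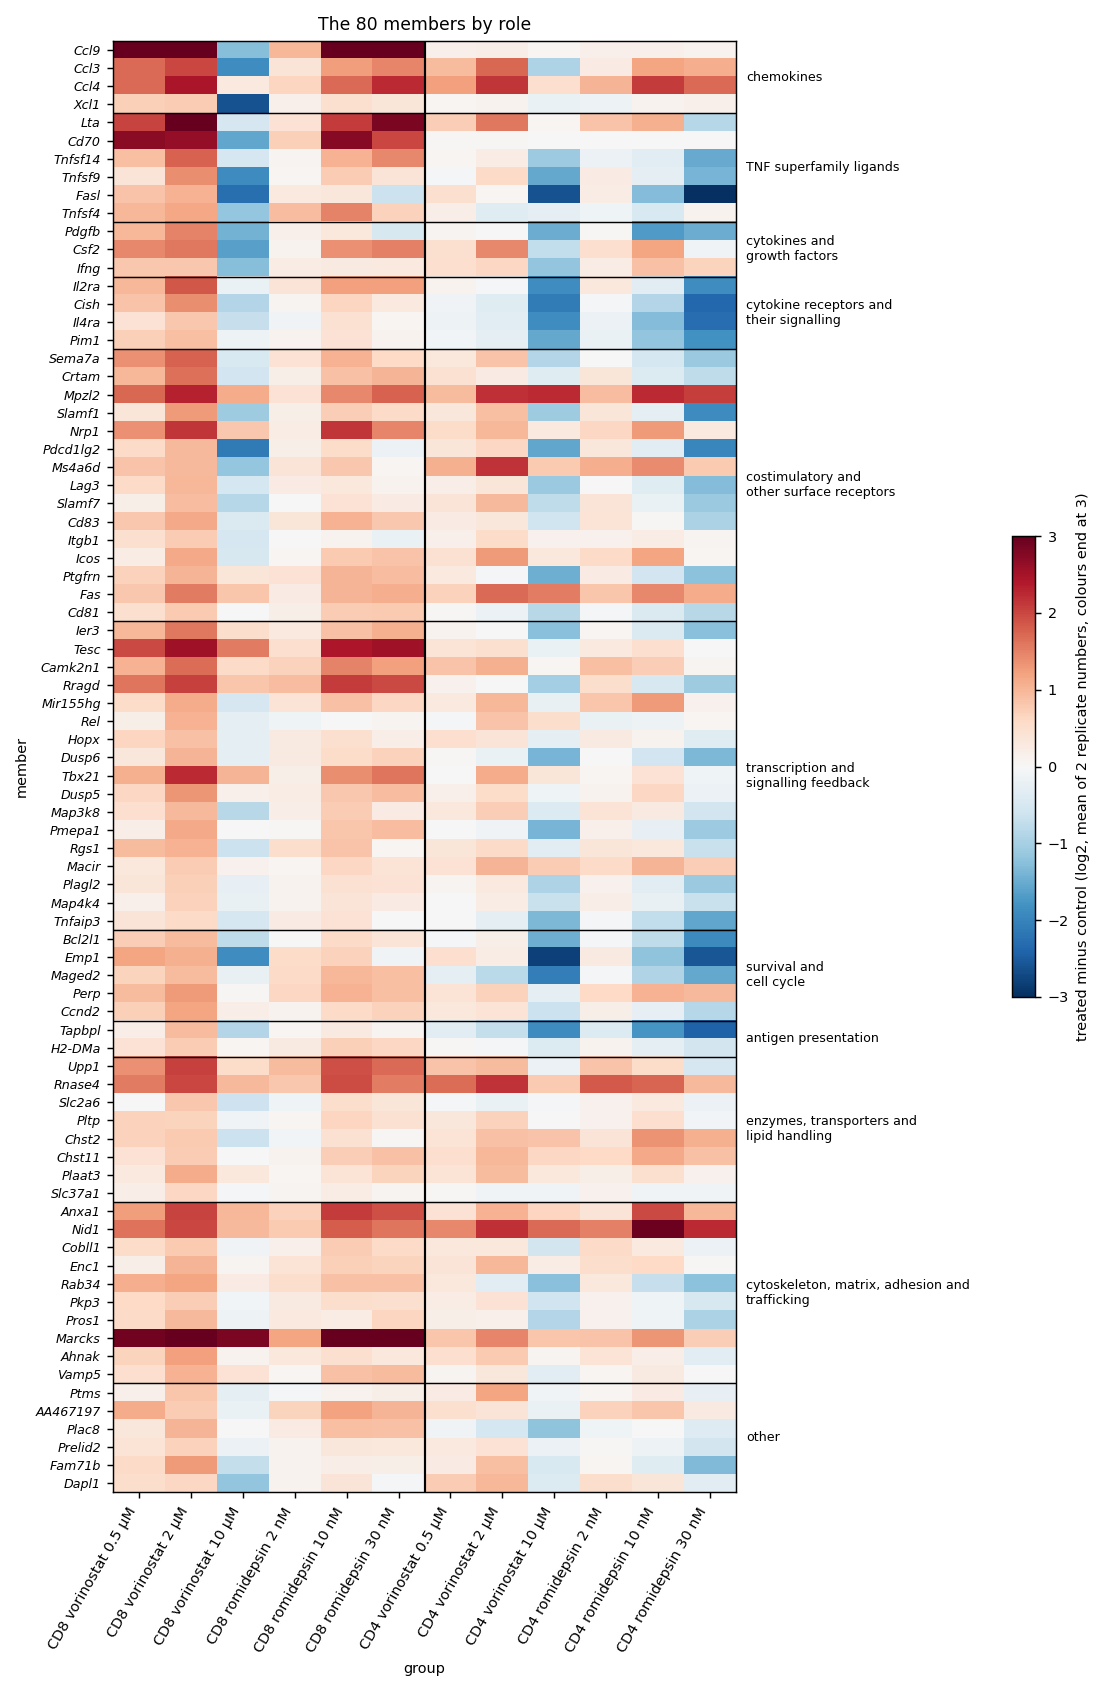
Mean difference from the control of the same cell type (log2, 2 replicate numbers) for the 80 members in rows, grouped by role, and the 6 treated groups of CD8 cells (left) and CD4 cells (right) in columns; colours end at 3 log2 units on either side. CD8 vorinostat 2 µM is higher for all 80 members by choice, while Cish, Il4ra, Emp1 and Tapbpl are lower than control in CD4 cells at 10 µM vorinostat and 30 nM romidepsin.

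CD4 cells give a comparison on arrays that had no part in choosing the members. There, too, most members were higher at 2 µM vorinostat than at 10 µM. The median difference was 1.01 log2 units (1.33 in replicate 1 and 0.74 in replicate 2), while all tested genes had a median of -0.05. Of the 80 members, 74 were higher at 2 µM in both replicate numbers (34.3% of tested genes) and 1 was lower (44.6%). With limma across 9872 tested genes and Benjamini-Hochberg adjustment at 0.05, 13 members rose, 16.3% of them against 1.76% of tested genes, and 0 fell (3.66%). The replicate numbers pair the samples, and with the number as a block 55 members rose (17.8% of tested genes) and 0 fell (25.9%). The count of 13 rested on single arrays: without replicate 1 of 2 µM or replicate 1 of 10 µM 1 member was called, without replicate 2 of 2 µM 6, and without replicate 2 of 10 µM 9. All 6 pan T cell markers also rose at 2 against 10 µM with the block, with a median of 1.22. The 2 CD8 markers, Cd8a and Cd8b1, had summed signals of 222 and 323 at 2 µM and 57.6 and 104 at 10 µM in these CD4 arrays. The actin signal was 1.19 and 0.85 at 2 µM and 1.62 and 1.09 at 10 µM. Of 8 B cell markers, 5 were over detection at 2 µM and 2 at 10 µM, with summed signals of 61.4 and 1125 and then 45.7 and 149.7, and the 13 myeloid and dendritic markers, with 5 and 4 over detection, summed to 1926 and 2756 and then 2018 and 2585. The mean log2 level of these 13 was 3.17 and 4.39 at 2 µM and 3.09 and 3.83 at 10 µM. The part of these markers and of actin in the result was not tested.

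Emp1, a tetraspan membrane protein, had the largest rise in that comparison. It read 10.23 and 10.35 at 2 µM and 6.66 and 7.89 at 10 µM in CD4 cells, a difference of 3.01 (SE 0.43, limma adjusted p = 0.0013). The 10 µM arrays lay far below both 2 µM arrays. Il2ra read 10.88 and 10.72 at 2 µM and 8.86 and 9.10 at 10 µM, a difference of 1.82 (SE 0.41, limma adjusted p = 0.0174). Slamf7, a homophilic SLAM family receptor, read 9.99 and 9.35 against 7.93 and 7.95 (difference 1.73, SE 0.34, limma adjusted p = 0.0073). Neither gene had arrays of the groups overlapping. Bcl2l1, which encodes the survival protein BCL-XL, read 9.13 and 9.31 against 7.60 and 7.57 (difference 1.63, SE 0.32, limma adjusted p = 0.007). Lag3, an inhibitory receptor, read 10.53 and 10.39 against 8.81 and 9.15 (difference 1.48, SE 0.39, limma adjusted p = 0.0373). The other 8 members that rose were Ptgfrn, Rnase4, Fam71b, Pmepa1, Ier3, Pim1, Ccnd2 and Cobll1, by 0.86 to 1.44.

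By role, the block fit called 13 of 17 members of transcription and signalling feedback, all 4 of the cytokine receptor group (Il2ra, Il4ra, Cish and Pim1), all 3 of the secreted factors, 4 of 6 TNF superfamily ligands and 2 of 4 chemokines. With the block 55 of all 80 members rose, and 17.8% of tested genes rose and 25.9% fell, so these counts single out no role. The secreted factors had the highest group median, 1.81. Ifng, the main effector cytokine, read 10.25 and 11.80 at 2 µM and 8.25 and 10.19 at 10 µM in CD4 cells (difference 1.81, block adjusted p = 0.0021 with limma). Csf2 (GM-CSF) read 9.49 and 8.73 against 6.72 and 7.14 (difference 2.18, block adjusted p = 0.0064 with limma). Fasl read 8.06 and 10.19 against 4.77 and 8.14 (difference 2.67, block adjusted p = 0.0021 with limma). The groups of Fasl overlapped because the replicate numbers stood far apart, those of Ifng came close without overlapping, and each number on its own was lower at 10 µM. Ccl3 read 6.84 and 8.69 at 2 µM and 3.58 and 6.64 at 10 µM (difference 2.66, block adjusted p = 0.0049 with limma). The 8 enzymes and transporters had a lower median, 0.51, with 3 called.

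**Figure D3:**
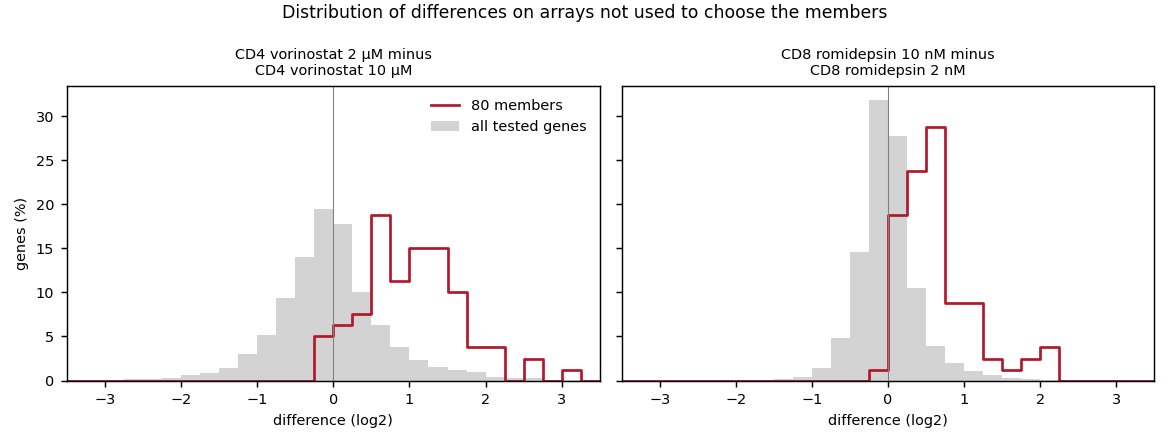
Percent of genes by log2 difference, in bins of 0.25, for the 80 members (red line) and all 9872 tested genes (grey bars), in CD4 cells at 2 µM minus 10 µM vorinostat (left) and in CD8 cells at 10 nM minus 2 nM romidepsin (right). The members' medians, 1.01 and 0.56, lie right of those of all genes, -0.05 and -0.02.

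Against control, CD4 cells at 2 µM vorinostat had a median member difference of 0.45 (0.63 and 0.29 within the numbers), with 54 members higher in both numbers (34.1% of tested genes) and 12 lower (41.5%). In limma 3 members rose (1.08% of tested genes) and 0 fell (0.334%). With the replicate block 25 rose (12.4%) and 2 fell (15.9%). Rnase4, a secreted ribonuclease, read 5.16 and 6.32 in control and 8.08 and 7.72 at 2 µM, a rise of 2.16 (SE 0.33, limma adjusted p = 0.0026). Fas, the death receptor, read 7.06 and 7.62 in control and 9.25 and 8.82 at 2 µM, a rise of 1.69 (SE 0.25, limma adjusted p = 0.0026). Chst11, a chondroitin sulfotransferase, read 7.33 and 7.67 and then 8.73 and 8.28, a rise of 1.00 (SE 0.21, limma adjusted p = 0.0291). None of these 3 genes had overlapping arrays. Without replicate 1 of control or of 2 µM, 0 members were called by limma. The 2 members called lower with the block were Tapbpl, a peptide editor of MHC class I (-0.73), and Maged2 (-0.80). The cytokine receptor group did not share the rise: in CD4 cells Il2ra read 11.01 and 10.67 in control and 10.88 and 10.72 at 2 µM, and the 4 genes of that group had a median of -0.29, with 0 called in either fit.

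Members with higher values in CD4 cells at 2 µM that passed the test only with the block included Nid1 (2.19), Mpzl2 (2.19), Ms4a6d (2.17), Ccl4 (2.14) and Lta (1.58). Lta read 11.64 and 10.49 in CD4 control, 13.37 and 11.91 at 2 µM, and 11.64 and 10.59 at 10 µM. Within each replicate number it was highest at 2 µM, while control and 10 µM nearly coincided. Ccl4 read 4.97 and 7.76 in control, 7.97 and 9.05 at 2 µM, and 6.02 and 7.73 at 10 µM. Tbx21, which encodes the lineage factor T-bet, read 8.78 and 9.22 in control and 10.30 and 9.92 at 2 µM (difference 1.11, block adjusted p = 0.0055 with limma). At 0.5 µM the median difference from control was 0.30, with 46 members higher in both numbers (25%) and 5 lower (34.7%). In limma 0 members rose at 0.5 µM (0.0101% of tested genes) and 0 fell (0%), with 3 at an unadjusted p under 0.05. With the block 1 member, Rnase4, rose by 1.68 (0.192% of tested genes) and 0 fell (0.0608%). Without replicate 1 of control the median at 0.5 µM was -0.065, and without replicate 2 of control it was 0.51 with 1 member called.

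At 10 µM vorinostat, CD4 cells had a median member difference from control of -0.38, with 17 members higher in both numbers (43.5% of tested genes) and 47 lower (39.1%). In limma 3 members rose (10.9% of tested genes) and 13 fell (7.1%), and with the block 9 rose (31.9%) and 31 fell (29.3%). Emp1 read 10.11 and 10.02 in control and 6.66 and 7.89 at 10 µM, and fell by 2.79 (SE 0.43, limma adjusted p = 0.000326). Maged2 fell by 2.07, Tapbpl by 1.89, Il2ra by 1.86 and Il4ra, the shared receptor chain of interleukins 4 and 13, by 1.86. Mpzl2, an adhesion protein, rose by 2.23 (6.22 and 6.31 in control, 8.87 and 8.12 at 10 µM). Fas rose by 1.54 and Chst2, a sulfotransferase of carbohydrates, by 0.86. Without replicate 1 of control the count of 16 became 8, without replicate 2 of control 10, and without replicate 1 of 10 µM 7.

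**Figure D4:**
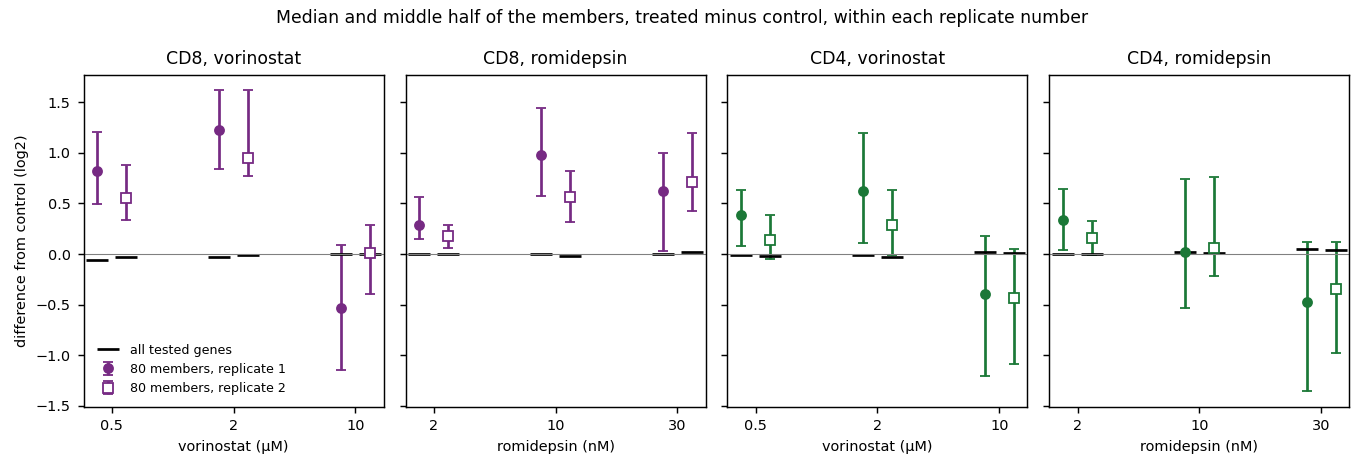
Median (points) and interquartile range (bars) of the 80 members' differences from the control array of the same replicate number, in log2, for CD8 cells (purple) and CD4 cells (green), replicate 1 filled and replicate 2 open; black bars are medians of all 9872 tested genes. The members' medians are highest at 2 µM vorinostat in both cell types, and lie at -0.40 and -0.43 at 10 µM in CD4 cells. In CD8 cells the choice of members required 2 µM to lie above control and 10 µM.

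The rule used for CD8 vorinostat was then applied to 3 other dose series, counting a peak where the score was over 0. In the 2 CD4 series a peak thus means a middle dose above control and the top dose, with the low dose left out. Emp1 scored over 0 in CD4 vorinostat but read 10.52 and 10.61 at 0.5 µM and 10.23 and 10.35 at 2 µM. Dapl1 did so in CD4 romidepsin but read 11.34 and 11.14 at 2 nM and 11.18 and 10.98 at 10 nM. Among all CD4 groups, 2 µM held the highest mean for 39 members. In CD4 vorinostat 51 of 80 members peaked at 2 µM, against 7.87% of tested genes and 8.87% of the 6920 genes from which the members came; 50 of the 51 were over detection at 2 µM, Cd70 being the exception. With romidepsin in CD4 cells 31 members peaked at 10 nM (7.86% of tested genes). In CD8 romidepsin, with 2 nM in place of control, 15 members peaked at 10 nM (3.62%). That count was 70 in replicate 1 alone and 15 in replicate 2 alone. A score over 0.5 was reached by 19, 13 and 0 members in the same order (0.588%, 0.385% and 0.0506% of tested genes). In CD4 vorinostat the highest scores were those of Ccl3 (1.51), Rnase4 (1.36), Lta (1.32), Ccl4 (1.29) and Ms4a6d (1.07). In CD4 romidepsin they were those of Lta (1.05), Csf2 (0.91), Icos (0.75), Mir155hg (0.73) and Anxa1 (0.71). In CD8 romidepsin Cish (0.33), Ms4a6d (0.29), Camk2n1 (0.24), Macir (0.19) and Nrp1 (0.19) led. Rnase4, Nrp1, Ms4a6d, Camk2n1, Pltp, Macir and Dapl1 peaked in all 3 series, and 23 members peaked in none. Among the latter were Il2ra, Il4ra, Crtam, Pdgfb and Tnfsf14, and also Ccl9 and Xcl1, which were near or under detection in CD4 cells. The 2 CD4 series share their control arrays.

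In CD4 cells romidepsin gave the members no common direction at 10 nM. The median difference from control was 0.06, with 36 members higher in both numbers (43.4% of tested genes) and 32 lower (39%). In limma 6 members rose (6.32% of tested genes) and 2 fell (2.32%), and with the block 21 rose (26.2%) and 11 fell (22%). Nid1, a basement membrane protein, read 4.56 and 4.82 in control and 7.77 and 7.50 at 10 nM, a rise of 2.94 (SE 0.76, limma adjusted p = 0.0229). Anxa1 rose by 1.98, Rnase4 by 1.76, Fas by 1.44 and Chst2 by 1.35. Tapbpl, at 8.14 and 8.33 in control and 5.98 and 6.95 at 10 nM, fell by 1.77, and Pim1, a serine/threonine kinase, fell by 1.19. Without replicate 1 of control 1 member was called, and without replicate 1 of 10 nM 4. At 2 nM the median was 0.24, with 51 members higher in both numbers (32.3%) and 11 lower (32%). In limma 0 members rose at 2 nM (0.0304% of tested genes) and 0 fell (0%), with 4 at an unadjusted p under 0.05. With the block 2 rose, Rnase4 by 1.83 and Macir by 0.57 (0.821% of tested genes), and 0 fell (0.101%). Without replicate 1 of control the medians were -0.01 at 2 nM and -0.17 at 10 nM, and without replicate 2 of 10 nM the latter was -0.19.

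At 30 nM romidepsin the CD4 median was -0.38, with 17 members higher in both numbers (47.4% of tested genes) and 45 lower (39.5%). In limma 6 members rose (13.3% of tested genes) and 20 fell (7.91%), and with the block 12 rose (35.4%) and 33 fell (28.3%). Emp1 fell by 2.56, Tapbpl by 2.43, Cish, the STAT5-induced feedback inhibitor of cytokine receptors, by 2.36, Il4ra by 2.28 and Bcl2l1 by 1.91. Cish read 11.23 and 12.11 in control and 8.86 and 9.76 at 30 nM, with no overlap. Nid1 rose by 2.24, Mpzl2 by 2.07, Fas by 1.10, Chst2 by 1.08 and Rnase4 by 0.97. The count of 26 became 7 without replicate 1 of 30 nM, 10 without replicate 1 of control and 15 without replicate 2 of control.

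Between the upper romidepsin doses, the members were higher at 10 nM than at 30 nM in CD4 cells, by a median of 0.61 (0.65 and 0.61 within the numbers). Higher in both numbers were 68 members (33.5% of tested genes), and 1 was lower (40.7%). In limma 0 members rose (0.0101% of tested genes) and 0 fell (0.111%), with 16 at an unadjusted p under 0.05, and with the block 20 rose (4.26% of tested genes) and 0 fell (6.43%). Lta led these, at 12.69 and 11.57 at 10 nM and 10.84 and 9.56 at 30 nM (difference 1.93, block adjusted p = 0.019 with limma). Slamf1 (1.63), Il2ra (1.51), Cish (1.47) and Emp1 (1.35) came next. In CD8 cells the same comparison had a median of 0.13, made of 0.42 in replicate 1 and -0.23 in replicate 2. There 15 members were higher in both numbers (31.2% of tested genes), 8 lower (40.4%) and 57 mixed. In limma 0 members rose (0% of tested genes) and 0 fell (0.466%), with 0 at an unadjusted p under 0.05, and with the block 0 rose (7.99%) and 0 fell (12.8%). The CD8 median was -0.071 without replicate 1 of 30 nM and 0 without replicate 1 of 10 nM. Replicate 1 was above 0 for 71 members and replicate 2 for 16. The 95% interval of a difference reached a median of 1.02 log2 units to either side without the block and 0.58 with it. The difference between the cell types in this comparison, CD8 minus CD4, had a median of -0.48, with 50 members lower in both numbers (30.1% of tested genes) and 1 higher (26.4%). In limma 0 members differed (0% of tested genes), with 4 at an unadjusted p under 0.05, and with the block 0 were higher (0.0101%) and 0 lower (0.0506%).

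**Figure D5:**
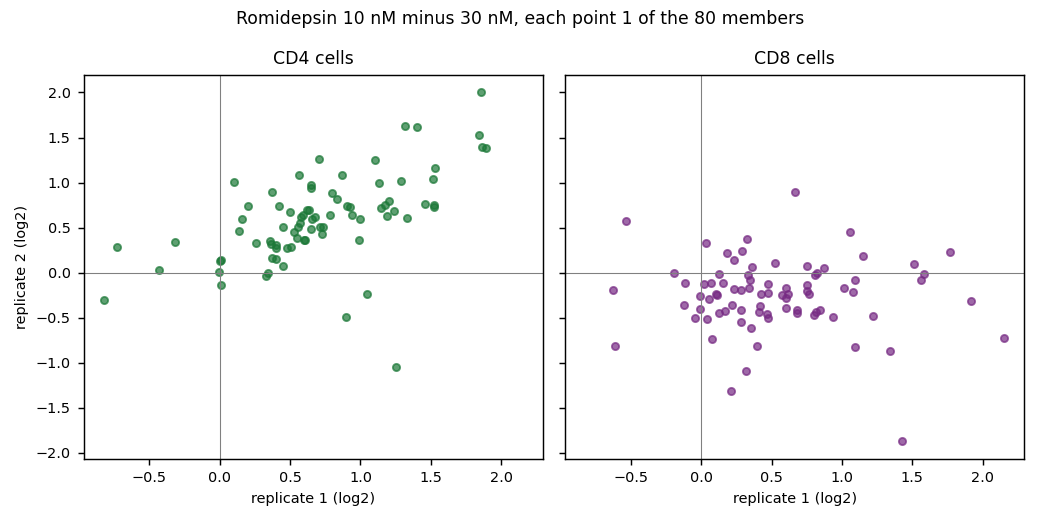
Log2 difference of 10 nM minus 30 nM romidepsin in replicate 1 (x axis) and replicate 2 (y axis) for each of the 80 members, CD4 cells left and CD8 cells right. In CD4 cells 68 members are above 0 in both numbers, while in CD8 cells 56 are above 0 in replicate 1 and below 0 in replicate 2.

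From 2 to 10 nM romidepsin in CD8 cells, on arrays the choice of members did not use, 76 members were higher at 10 nM in both numbers (31.7% of tested genes) and 0 were lower in both (38.9%). The median difference was 0.56 (0.69 and 0.38 within the numbers) against -0.02 for all tested genes. In limma 0 members rose (0.213% of tested genes) and 0 fell (0%), with 13 at an unadjusted p under 0.05, and with the block 15 rose (3.31% of tested genes) and 0 fell (1.97%). Marcks read 7.57 and 6.51 at 2 nM and 9.64 and 8.56 at 10 nM (difference 2.06, block adjusted p = 6.93e-05 with limma). Nrp1, a coreceptor for semaphorins and growth factors, read 6.08 and 4.56 and then 8.10 and 6.36 (difference 1.91, block adjusted p = 0.0013 with limma). Tesc read 6.51 and 7.52 and then 8.73 and 9.11 (difference 1.90, block adjusted p = 8.22e-05 with limma). Within a number these 3 genes were 1.59 to 2.22 log2 units higher at 10 nM, and their groups did not overlap. Among members called with the block, Lta (1.67), Anxa1 (1.40), Tbx21 (1.2), Rnase4 (1.13) and Mpzl2 (1.02) followed, while Ccl9 and Cd70 differed by 2.00 each without passing the test. The mean pan T cell level was 11.32 and 11.91 at 2 nM and 11.06 and 11.79 at 10 nM, and the actin signal 0.87 and 0.77 and then 1.01 and 0.85. B cell markers, with 3 and 2 of 8 over detection, summed to 419.8 and 1397 at 2 nM and 114 and 681 at 10 nM, and myeloid and dendritic markers, with 5 and 3 of 13 over detection, to 2602 and 2702 and then 4727 and 2676. The mean log2 level of these 13 was 3.11 and 4.03 at 2 nM and 3.19 and 3.74 at 10 nM. The part of all these in the result was not tested.

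In the control arrays, 76 members were over detection in both CD8 arrays and 74 in both CD4 arrays, and 1 and 4 were at or under detection in both. Ccl9 lay between 2.29 and 2.91 and Cd70 between 2.27 and 2.41 over the CD4 arrays. Xcl1, at 14 and 13.20 in CD8 control, lay between 3.42 and 4.28 in CD4 cells, and Tnfsf4 (OX40 ligand) lay between 3.23 and 4.38. No dose response can be read for these 4 genes in CD4 cells. Within CD4 cells the highest group mean was at 2 µM vorinostat for 39 members, at 0.5 µM for 14, at 10 nM romidepsin for 13, at 2 nM for 7, in control for 6 and at 30 nM for 1.

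Several members are neighbours in the RefSeq gene order of the mouse genome. Tnfsf9, Cd70 and Tnfsf14 stand side by side, as do Ccl3 and Ccl4, with Ccl9 1 gene away beyond Ccl6. Lag3 adjoins Ptms, Nrp1 adjoins Itgb1, and Perp adjoins Tnfaip3. In CD4 cells Cd70 was under detection in every array, whereas Tnfsf14 was over it in every array, between 5.12 and 7.86. Other probe sets gave a check of the choice: 45 members had 81 further probe sets, of which 31, for 19 genes, were over 6 in both CD8 arrays at 2 µM. Of these 31, 30 had a score over 0 in CD8 vorinostat, a description of the same arrays, 27 were higher at 2 µM than at 10 µM in both CD4 numbers, and 27 were higher at 10 nM than at 2 nM romidepsin in both CD8 numbers.

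Of 28 gene lists drawn up for T cells, 11 held at least 1 member, 29 members in all. The counts that follow are for the list genes that are not members, at 2 against 10 µM vorinostat in CD4 cells. Of all tested genes, 1.76% rose and 3.66% fell in limma, and 17.8% rose and 25.9% fell with the block. Of 14 other effector cytokines and chemokines (beside Ifng, Csf2, Lta, Ccl3, Ccl4 and Xcl1), 4 rose and 0 fell in limma, 8 rose and 1 fell with the block, and the median difference was 1.78. Of 11 other costimulatory receptors and ligands (beside Icos, Tnfsf4, Tnfsf9, Tnfsf14, Cd70 and Slamf1), 2 rose and 0 fell, 9 and 0 with the block, with a median of 1.80. Of 20 other cytokine receptors and SOCS genes (beside Il2ra, Il4ra, Cish and Pim1), 4 rose and 0 fell, 15 and 1 with the block, with a median of 0.99. Medians were lower for 18 other immediate early genes (beside Ier3, Dusp5, Dusp6 and Tnfaip3; 0.28), 16 other apoptosis genes (beside Bcl2l1 and Fas; 0.53) and 19 other cytoskeletal genes (beside Marcks and Anxa1; 0.24). Lists with 1 member had medians of 1.59 for 18 other lineage factors (beside Tbx21), 1.49 for 10 other interleukin and growth factor ligands (beside Pdgfb), 1.13 for 12 other cytotoxic genes (beside Fasl), 1.11 for 16 other chemokine receptors and adhesion genes (beside Itgb1) and 0.88 for 11 other inhibitory receptors (beside Lag3). Lists without a member could be as high: 8 of 8 GIMAP GTPases and 16 of 19 T cell receptor signalling genes rose with the block, with medians of 1.62 and 1.60. The higher level at 2 than at 10 µM was thus shared by many T cell genes outside the members, against a median of -0.05 over all tested genes. Other lists without a member were lower at 2 µM. With the block 9 of 11 interferon-inducible GTPases and 6 of 12 neuronal genes fell, with medians of -1.24 and -0.84. The 7 histone genes had a median of -0.49. From 2 to 10 nM romidepsin in CD8 cells, 19 other cytoskeletal genes had a median of 0.83, with 2 rises and 0 falls in limma and 9 and 0 with the block. Lists without a member were also high there, with medians of 1.09 for 12 neuronal genes and 0.82 for 11 interferon-inducible GTPases. Medians were lower for other effector cytokines and chemokines (0.12), costimulatory genes (-0.09) and inhibitory receptors (-0.46). The T cell receptor signalling genes had a median of -0.20.

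Mir155hg, the host transcript of miR-155, was itself a member, and the microRNA was not measured by these probes. The mature sequence that the transcript yields is shown because it is the functional product, from RefSeq (build GRCm38.p6, chr16:84714143-84714165, plus strand), with the seed (bases 2 to 8) in capitals.
mmu-miR-155-5p: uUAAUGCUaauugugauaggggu
Mir155hg read 6.63 and 6.84 in CD8 control, 8.01 and 7.70 at 2 µM vorinostat and 5.93 and 6.52 at 10 µM. In CD4 cells it read 5.89 and 7.23 in control, 7.38 and 7.71 at 2 µM and 5.57 and 7.12 at 10 µM, higher at 2 µM within each number (2 µM minus 10 µM 1.2, block adjusted p = 0.0062 with limma). Outside the 80 members, the tested genes whose 14 group means followed the members' mean profile most closely were S100a10 (Pearson r 0.953), Nfat5 (0.942) and Rabgap1l (0.937), a description over group means that share arrays with the choice of members.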

How the data were processed

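RNA of 28 Mouse430_2 arrays was compared as deposited: per the submitters' processing notes, the authors computed log2 expression values with GCRMA, whose version is not given in the sources used here, and the table holds 45101 probe sets. Genes were named from the platform table: 34958 probe sets had 1 gene, 932 several and 9211 none, and 34754 were matched by gene ID to RefSeq. Each gene was represented by its probe set of highest mean. Genes over 4.27 log2 units (the mode of all values plus 2) in at least 2 arrays were tested, 9872 in all and 80 of the 80 members, with limma 3.58.1 in R 4.3.3: 1 mean per group over all arrays (14 residual degrees of freedom), moderated variance, Benjamini-Hochberg over all tested genes, threshold 0.05. The script was tested on simulated data.

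Replicate numbers pair the samples: within a cell type, the difference of replicate 1 and 2 correlated between every pair of groups, with r from 0.762 to 0.94 over 21 pairs in CD4 and from 0.768 to 0.958 over 21 pairs in CD8. Counts with the number as a block (12 residual degrees of freedom) are therefore printed beside the others. The depth of an array is not a count, so the number of arrays, 2 a group, limits the precision.

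Members and gene lists were chosen with earlier results of these data known. Named genes are members: array values for the 12 of highest score, and per comparison the 5 called members with the largest rise and fall in both numbers. Further members were named for their role after their values were seen. Alternatives were another normalization, filter, probe set rule, trend, block and the omission of each array.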

Additional observations from a re-analysis of the deposited data

Results flagged for a closer look

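Between 10 and 30 nM romidepsin, 9 members differed one way in both CD4 numbers and the opposite way in both CD8 numbers, 11.2% of the 80 against 8.46% of all tested genes. In CD8 cells 1 number lay close to 0 for Ier3 (-0.011), Dusp6 (-0.01), Pmepa1 (-0.007) and Marcks (-0.043). The difference of these differences, CD8 minus CD4, was -2.65 for Lta, -1.03 for Ier3, -0.92 for Dusp6, -0.91 for Dusp5, -0.94 for Pmepa1, 1.37 for Tnfsf4, -1.23 for Pros1, -0.87 for Marcks and -0.59 for Plaat3. In limma no adjusted p was under 0.05, and the lowest with the replicate block was 0.133, for Ier3. Lta was 1.86 and 2.01 higher at 10 than at 30 nM in CD4 cells and 0.62 and 0.82 lower in CD8 cells. Tnfsf4 was near or under detection in CD4 cells.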

How the results depend on the processing

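With the replicate block, 1 member was called in either direction at 0.5 µM, 27 at 2 µM and 40 at 10 µM against control in CD4 cells. Of tested genes, 0.192% rose and 0.0608% fell, 12.4% and 15.9%, and 31.9% and 29.3%. At 2, 10 and 30 nM romidepsin, 2, 32 and 45 were called. The shares of tested genes were 0.821% and 0.101%, 26.2% and 22%, and 35.4% and 28.3%. At 2 against 10 µM 55 were called (17.8% and 25.9%). At 10 against 30 nM in CD4 cells it was 20 (4.26% and 6.43%). At 10 against 2 nM in CD8 cells it was 15, with the shares given above. The counts of called members that follow are given without the share of tested genes, so they describe the settings and not the members. Quantile normalization gave 8 at 2 µM against control and 24 at 2 against 10 µM. The mean of all probe sets gave 5 at 10 nM romidepsin against control in CD4 and 1 at 10 against 2 nM in CD8 cells, and kept 49 of the 80 members. CD4 arrays alone gave 0 at 2 µM against control and 6 at 2 against 10 µM. Without 1 array, counts ran from 0 to 1 at 0.5 µM, 0 to 4 at 2 µM and 7 to 14 at 10 µM against control, 1 to 9 at 2 against 10 µM, and 0 to 1, 1 to 7 and 7 to 19 at 2, 10 and 30 nM romidepsin; the other 4 comparisons stayed at 0. Choosing members from 1 replicate number kept 47 to 59. Within 1 number, 57 to 59 members peaked in CD4 vorinostat, 38 to 39 in CD4 romidepsin and 15 to 70 in CD8 romidepsin, the 70 in replicate 1. A score over 0.5 gave 19, 13 and 0. The median of the members changed sign at 0.5 µM (-0.065), 2 nM (-0.01) and 10 nM (-0.17) against control in CD4 cells without replicate 1 of control, at 10 nM (-0.19) without replicate 2 of 10 nM, and in CD8 cells for 10 against 30 nM romidepsin without replicate 1 of 10 nM (0) or of 30 nM (-0.071). Over all omissions of 1 array, the medians ran to 0.506 at 0.5 µM, 0.481 at 2 nM and 0.374 at 10 nM against control in CD4 cells, and to 0.336 for 10 against 30 nM in CD8 cells. Causes were not tested, beyond fewer arrays in the fits that left some out.

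Among refits of named changes, 285 kept their call, 108 kept only their direction and none reversed. These refits covered named changes that limma called without the block, and changes named on the block alone were not refitted. Values at 2 arrays a group are limited by the spread between arrays, and genes under the detection level carry no order.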
